A study of Mus musculus with 2 samples.

Results

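Thyroid hormone reaches the nucleus of a muscle fibre through a short chain of proteins, and 6 genes of that chain are described here. They are the nuclear receptors Thra and Thrb, the activating deiodinase Dio2, the transporter Slc16a10, and Rxra and Rxrg, which encode the retinoid X receptors that pair with the thyroid hormone receptors on DNA. The genes were chosen by symbol, and all 6 of 6 had a row among the 55536 genes of the gene table. The tissue was gastrocnemius, a fast muscle of the calf, taken at 36 days of age from females of the hybrid strain B6CASTF1/J. Its total RNA was sequenced in 2 libraries, replicate 2 and replicate 1, for which 300 ng was the starting amount and spike-in RNAs were used. They form 1 group, and no treatment, mutation or other tissue is compared. Whether these were 2 animals is not said in the labels, and a difference between the libraries may be technical. Values are levels as TPM, a read measure per length that can be compared between genes, or estimated read counts, which cannot.

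The thyroid gland releases mostly thyroxine, a prohormone, which enters cells through transporters of the Slc16 family among others. The deiodinase encoded by Dio2 removes an iodine atom from it and makes triiodothyronine, the form that binds the receptors. Receptors sit on DNA as pairs with a retinoid X receptor; they hold corepressors without hormone and coactivators with it. In skeletal muscle the hormone is known for its effects on fibre type, calcium pumping and heat production, and Thra is known as the main receptor gene there.

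Estimated counts over the gene table summed to 40656175 for replicate 2 and to 37735687 for replicate 1. The libraries stood apart in ways that the labels do not describe. All 8 of 8 slow-fibre markers were higher in replicate 2, at a summed 2684 TPM, against 15.3 TPM in replicate 1, while the 8 fast-fibre markers summed to 70860 TPM in replicate 2, against 98255 TPM in replicate 1. Fast-fibre genes, the markers of the labelled muscle, were thus high in both libraries. White fat, Schwann cell and red blood cell markers were lower in replicate 2, with 7 of 7, 6 of 6 and 3 of 3 genes below replicate 1. Their sums were 113, 37.5 and 296 TPM in replicate 2, against 346, 123 and 1691 TPM in replicate 1. Lymphocyte markers summed to 7.45 TPM in replicate 2, against 0.25 TPM in replicate 1, and endothelial, fibroblast, macrophage and satellite cell markers had no gene over 2-fold apart. Mitochondrial genes held 17.5% of the counts in replicate 2 and 9.39% in replicate 1.

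The 6 genes spanned about 2 orders of magnitude, and their order was Rxra, Thra, Rxrg, Slc16a10, Thrb and Dio2. The partner and receptor genes Rxra and Thra stood above 91.4% and 88.9% of the 14996 genes whose mean count reached 10, called the genes tested. Dio2 stood higher than only 11.3% of them. In the gene table, neighbours in this order had separate ranges over the 2 libraries, except Rxrg and Slc16a10, whose ranges overlapped. A second quantification, made by the authors directly from the reads, gave the same order but also let the ranges of Rxra and Thra overlap. The widest step was between Thrb and Dio2, whose mean levels differed 23.9 times.

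**Figure D1:**
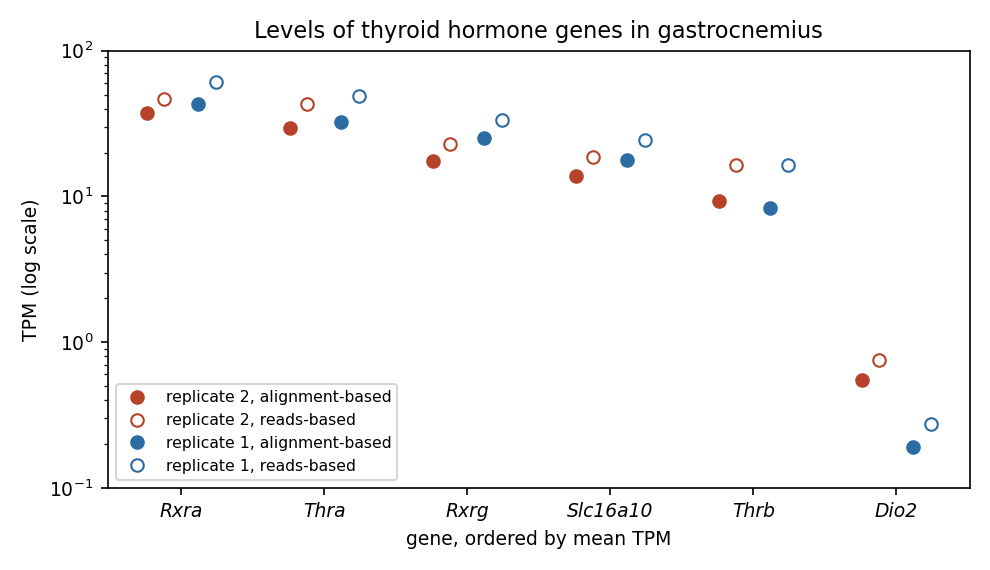
Level of each of the 6 genes in TPM, on a log axis, in replicate 2 (red, left) and replicate 1 (blue, right), from the gene table (filled points) and summed from the reads-based transcript table (open points). Rxra, Thra, Rxrg, Slc16a10 and Thrb lie between 8.38 and 60.6 TPM in every library and table, and Dio2 lies below 1 TPM in all of them.

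Thra encodes the receptor on mouse chromosome 11 (chr11:98740638-98769006, plus strand, mm10, GENCODE M21). Its level was 29.7 TPM in replicate 2, against 32.3 TPM in replicate 1, a mean of 31.0 ± 1.83 TPM (SD, n = 2), from 1914 counts in replicate 2 and 1942 in replicate 1. The libraries were close for this gene, with a log2 ratio of replicate 2 over replicate 1 of -0.09 after TMM scaling, a scaling that sets most genes equal. The 95% counting interval of the ratio, 0.882 to 1.00, just reached 1. Spike-in scaling gave 0.30, and scaling to the library total without mitochondrial genes gave 0.01, so the sign is not fixed for Thra.

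Thra is known for 2 products with different endings. Thra-202 has 410 residues in the annotation, the length of the hormone-binding receptor alpha-1. Thra-201 has 492 residues, the length of alpha-2, which shares the DNA-binding part but ends differently and is known not to bind the hormone. Thra-203 shares the later exons of Thra-201 up to the last one, which it enters 117 bases (39 codons) further in, and its annotated coding sequence is incomplete at the 3′ end. It is grouped with Thra-201 below because both use the distant last exon, and its full product is not given by the annotation. The coding sequences part at the end of a shared exon, at base 98764405 of chromosome 11. They are shown here, from the GENCODE M21 transcripts, because this junction decides which receptor is made; the last 30 shared bases are in lower case and the first 30 that follow in each form are in capitals.
Thra-202: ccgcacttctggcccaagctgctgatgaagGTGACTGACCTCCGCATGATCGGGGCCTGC
Thra-201: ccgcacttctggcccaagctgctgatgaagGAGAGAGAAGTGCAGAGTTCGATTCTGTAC
Thra-203: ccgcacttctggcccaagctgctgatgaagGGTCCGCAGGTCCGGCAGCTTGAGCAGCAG
The capitals of Thra-202 directly follow the shared exon (chr11:98764406-98764435), while those of Thra-201 (chr11:98768157-98768186) and Thra-203 (chr11:98768274-98768303) come from the distant last exon.

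The ending of Thra-202 and the distant last exon, taken as Thra-201 plus Thra-203, were present at similar levels. Thra-202 stood at 14.2 TPM in replicate 2, against 13.6 TPM in replicate 1. Thra-201 stood at 9.60 TPM in replicate 2, against 11.1 TPM in replicate 1, and Thra-203 at 4.96 TPM in replicate 2, against 6.45 TPM in replicate 1. Thra-202, the alpha-1 form, was thus the leading single transcript in both libraries. In the TPM of this table, Thra-201 and Thra-203 together were higher than it in both.

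As shares of all Thra TPM, Thra-202 held 47.8% in replicate 2 and 42.1% in replicate 1 (mean 44.9%), and Thra-201 and Thra-203 together held 49.1% in replicate 2 and 54.5% in replicate 1. The reads-based table gave Thra-202 a share of 45.7% in replicate 2 and 41.4% in replicate 1, and the pair 44.3% in replicate 2 and 49.3% in replicate 1. By counts of the alignment-derived table, Thra-202 held 51.3% in replicate 2, against 47.6% for the pair. In replicate 1 it held 45.8%, against 52.8% for the pair. Which of the endings was ahead in replicate 2 therefore depends on the table and on the unit, and in replicate 1 it did not. In counts the Thra-202 share had a Wilson 95% interval of 49.0 to 53.5% in replicate 2 and 43.6 to 48.0% in replicate 1. These intervals do not overlap; they cover counting error only and not the error of dividing reads between transcripts. The 6 remaining Thra transcripts each stayed at or below 0.52 TPM in both libraries of the alignment-derived table. In the reads-based table Thra-204 reached 5.07% of Thra TPM in replicate 2 and 5.50% in replicate 1.

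The log2 ratios differed between the forms, but the fold intervals of Thra-202 and Thra-201 overlapped slightly. The log2 ratio was 0.07 for Thra-202, with a fold interval of 0.96 to 1.15, and -0.20 for Thra-201, with an interval of 0.78 to 0.96. Thra-203 gave -0.37, but it has no base that is not also in another Thra transcript. Its 182 counts in replicate 2 and 225 in replicate 1 carried a deposited posterior SD of 34.7 counts in replicate 2 and 38.1 in replicate 1.

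**Figure D2:**
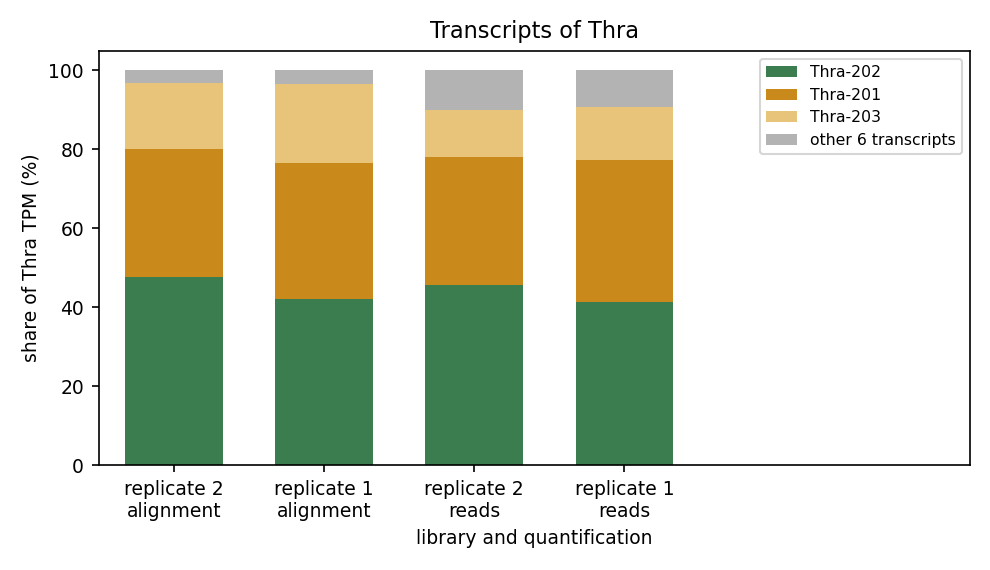
Share of each Thra transcript in the summed Thra TPM (%), in replicate 2 and replicate 1 from the alignment-derived table (left pair of bars) and from the reads-based table (right pair). Thra-202 (green) holds 41.4 to 47.8% in the 4 bars, and is larger in replicate 2 with either table.

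The last exon of the alpha-2 form lies across from Nr1d1, a clock repressor gene on the opposite strand. Nr1d1 was higher than Thra-201, at 34.0 TPM in replicate 2, against 35.8 TPM in replicate 1. Thra-201 shares 263 of its 2452 bases with the main Nr1d1 transcript (10.7%), Thra-203 shares 130 of 1240 bases, and Thra-202 shares 0. The labels describe the spike-in mixture as one for stranded libraries, but whether strand was used in counting is not given in the sources used here. If it was not, reads of the overlap cannot be told apart, and the alpha-2 values are uncertain to that extent. The log2 ratio of Nr1d1 was -0.03.

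**Figure D3:**
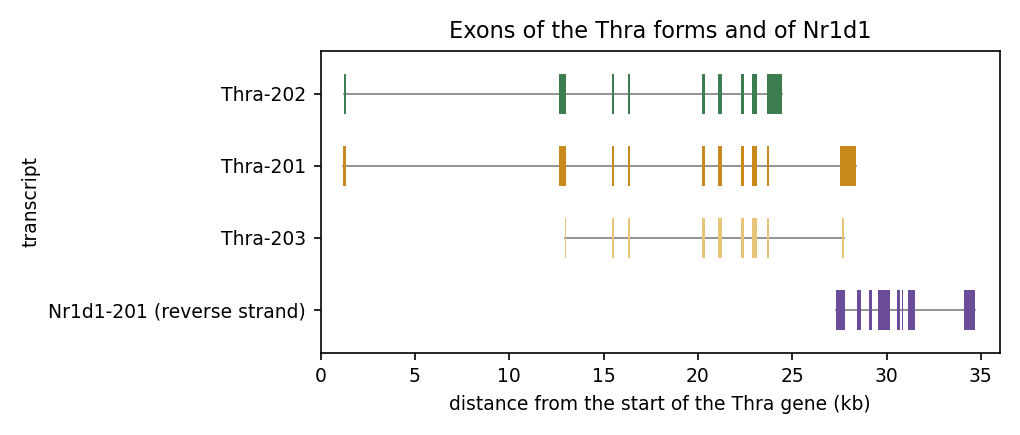
Exons (boxes) of Thra-202, Thra-201, Thra-203 and the opposite-strand Nr1d1 transcript, to scale, by distance from the start of the Thra gene in kb. The Thra-202 exons end before the Nr1d1 exons begin, while the last exons of Thra-201 and Thra-203 overlap the Nr1d1 end by 263 and 130 bases.

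Thrb encodes the other receptor (chr14:17660261-18038090, plus strand), known for feedback control in the pituitary and for hormone responses in liver. Its level was 9.33 TPM in replicate 2, against 8.38 TPM in replicate 1, a mean of 8.86 ± 0.672 TPM (SD, n = 2), from 853 counts in replicate 2 and 733 in replicate 1. The log2 ratio was 0.15, with a fold interval of 1.00 to 1.23, and spike-in scaling gave 0.54, so replicate 2 was the higher under both. Thra made up 76.1% of the Thra plus Thrb TPM in replicate 2 and 79.4% in replicate 1, with a mean of 77.7%, and 73.7% on average in the reads-based table. Summed over all its transcripts, Thra therefore exceeded Thrb in both libraries and both tables. That sum includes the alpha-2 form, so it is not a balance of hormone-binding receptors. Thra-202, the alpha-1 form, was by itself still above the whole of Thrb, but by less. In replicate 2 it had 14.2 TPM where Thrb had 9.33 TPM, and for replicate 1 these values were 13.6 and 8.38 TPM. The reads-based values were 19.6 beside 16.4 TPM (replicate 2) and 20.3 beside 16.3 TPM (replicate 1).

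The Thrb total was spread over 7 transcripts, and its division could not be fixed. Thrb-202 has 475 residues in the annotation, the length of beta-2, a form known from the pituitary, retina and inner ear. It held 28.9% of Thrb TPM in replicate 2 and 28.8% in replicate 1, and in the reads-based table it held 20.1% in replicate 2 and 19.4% in replicate 1. Of the 2204 bases found in no other Thrb transcript, 1531 lie after its stop codon, where reads show the end of the transcript and not the beta-2 start. Thrb-201 and Thrb-203, with 461 residues the beta-1 form, have no base of their own; they held 12.5 and 19.6% in replicate 2, and 15.5 and 12.2% in replicate 1. Thrb-205, a short fragment, went between 2.14% in the alignment-derived table and 23.7% in the reads-based table in replicate 2, and between 5.60% and 36.6% in replicate 1.

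Rxra encodes retinoid X receptor alpha (chr2:27676440-27762957, plus strand), a partner of many nuclear receptors and the gene of the 6 with the highest level. It stood at 37.5 TPM in replicate 2, against 43.0 TPM in replicate 1, a mean of 40.3 ± 3.93 TPM (SD, n = 2), from 4993 counts in replicate 2 and 5629 in replicate 1. Replicate 2 was lower under TMM scaling, with a log2 ratio of -0.24 and a fold interval of 0.814 to 0.879, but higher under spike-in scaling, at 0.15. Most of it was 1 transcript: Rxra-201, with 467 residues, held 82.5% of Rxra TPM in replicate 2 and 86.3% in replicate 1.

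Among the small Rxra transcripts, Rxra-204 stood at 4.48 TPM in replicate 2, against 3.63 TPM in replicate 1, with a fold interval of 0.86 to 1.76, but was listed at 0% in the reads-based table. Rxra-202 and Rxra-203 changed places between libraries and tables. Rxra-202 was assigned 2.08 TPM in replicate 2, against 0.13 TPM in replicate 1, and Rxra-203, which also has 439 residues, was listed at 0 TPM in replicate 2, against 1.89 TPM in replicate 1. The reads-based table turned this round, with Rxra-202 at 0% in replicate 2 and 7.13% in replicate 1, and Rxra-203 at 8.58% in replicate 2 and 1.13% in replicate 1. Few bases tell them apart: 81 bases of Rxra-202 and 118 bases of Rxra-203 are in no other Rxra transcript, all before the start codon.

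Rxrg encodes retinoid X receptor gamma (chr1:167598384-167639623, plus strand), whose known sites of expression include skeletal muscle and heart. It stood at 17.6 TPM in replicate 2, against 25.01 TPM in replicate 1, a mean of 21.3 ± 5.28 TPM (SD, n = 2), from 917 counts in replicate 2 and 1246 in replicate 1. The authors' deposited intervals of the level, 16.2 to 18.5 TPM in replicate 2 and 23.3 to 26.0 TPM in replicate 1, did not overlap. The log2 ratio was -0.51, with a fold interval of 0.644 to 0.765, farther from 0 than that of 78.9% of the genes tested. Spike-in scaling left it at -0.12. Fast-fibre markers, all 8 of 8 lower in replicate 2, had a median log2 ratio of -0.48. Myh1 and Myh2, also genes of fast fibres but outside that list, were higher in replicate 2, with log2 ratios of 3.21 and 2.29. The part of fast fibres in the Rxrg value was not tested.

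Rxrb, the third gene of the family, was level between the libraries, at 13.8 TPM in replicate 2, against 13.6 TPM in replicate 1. Of the summed Rxr TPM, Rxrg made up 25.5% in replicate 2 and 30.6% in replicate 1, and Rxra 54.4% in replicate 2 and 52.7% in replicate 1. By raw counts the Rxrg share was smaller, at 13.6% in replicate 2 and 16.2% in replicate 1, because counts are not per length.

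The main Rxrg transcripts have annotated starts that lie 19925 bases apart. The short form Rxrg-202, with 340 residues, begins at the downstream start, has the length of the form known as gamma-2, and stood at 14.3 TPM in replicate 2, against 19.7 TPM in replicate 1. The long form Rxrg-201, with 463 residues, stood at 3.26 TPM in replicate 2, against 5.23 TPM in replicate 1. The short form was thus the higher in both libraries, with 81.4% of Rxrg TPM in replicate 2 and 78.8% in replicate 1. In the reads-based table its share was smaller, at 65.3% in replicate 2 and 57.9% in replicate 1, and still over that of Rxrg-201. There Rxrg-204 and Rxrg-203, which also have 463 residues, held 13.9 and 2.97% in replicate 2, and 6.52 and 6.90% in replicate 1. By counts of that table the short form held 60.3% in replicate 2 and 51.4% in replicate 1. It has 187 bases in no other Rxrg transcript, all before its start codon.

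The windows of 250 bases before both Rxrg starts are printed because the transcript levels differ between the starts (RefSeq, GRCm38.p6, plus strand). The capitals mark AGGTCA, the hexamer that retinoid X and thyroid hormone receptors are known to bind.
Rxrg downstream, chr1:167618015-167618264: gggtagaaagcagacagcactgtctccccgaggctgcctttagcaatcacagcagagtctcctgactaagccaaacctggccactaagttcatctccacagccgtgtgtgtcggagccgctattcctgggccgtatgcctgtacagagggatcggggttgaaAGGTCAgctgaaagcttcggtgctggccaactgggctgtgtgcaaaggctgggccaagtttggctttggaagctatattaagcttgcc
Rxrg upstream, chr1:167598112-167598361: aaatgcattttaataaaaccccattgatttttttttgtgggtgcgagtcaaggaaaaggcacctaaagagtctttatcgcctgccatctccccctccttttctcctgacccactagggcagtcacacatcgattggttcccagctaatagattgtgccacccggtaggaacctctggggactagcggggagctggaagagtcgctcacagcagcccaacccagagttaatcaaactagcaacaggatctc
The RefSeq starts lie 44 bases (downstream) and 22 bases (upstream) before the GENCODE M21 starts of Rxrg-202 and Rxrg-201. The downstream window holds 1 AGGTCA, 88 bases before its RefSeq start, and the upstream window holds none. On either strand AGGTCA was found in 14% of the 32851 windows of this length in the RefSeq table, so a match is common. The longer spaced repeat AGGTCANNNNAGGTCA, which holds AGGTCA itself, was found in 0.0152% of windows and in 0 of the 8 windows that matched 5 of the 6 genes; AGGTCA was in 3 of those 8.

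Slc16a10 encodes a transporter of thyroid hormones and aromatic amino acids (chr10:40033532-40142258, minus strand). It stood at 13.8 TPM in replicate 2, against 17.7 TPM in replicate 1, a mean of 15.8 ± 2.75 TPM (SD, n = 2), from 1590 counts in replicate 2 and 2009 in replicate 1. Replicate 2 was lower, with a log2 ratio of -0.41 and a fold interval of 0.706 to 0.806; spike-in scaling gave -0.01.

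Under TMM scaling, the lower Slc16a10 level of replicate 2 was found mainly in the longer of its main transcripts. The long transcript, with 512 residues, stood at 6.18 TPM in replicate 2, against 9.35 TPM in replicate 1, a log2 ratio of -0.59 with a fold interval of 0.61 to 0.72. The short transcript, with 320 residues, stood at 7.18 TPM in replicate 2, against 6.71 TPM in replicate 1, a log2 ratio of 0.11 with an interval of 0.95 to 1.23. The intervals of the forms did not overlap. These ratios and intervals hold for TMM scaling only. Spike-in scaling left the whole gene at -0.01, and the forms were not scaled that way. The minor transcripts of the gene were also lower in replicate 2, with 0.47 and 0 TPM, against 0.75 and 0.91 TPM in replicate 1. The short transcript held 51.9% of Slc16a10 TPM in replicate 2 and 37.9% in replicate 1, and in the reads-based table it held 47.7% in replicate 2 and 34.1% in replicate 1, so the direction was the same in both tables. The forms can be told apart by many bases, with 3767 of the long and 1173 of the short in no other transcript of the gene, most of them after the stop codon.

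Dio2 encodes the type 2 deiodinase (chr12:90724552-90738438, minus strand), a selenoprotein that raises the local level of triiodothyronine. It was the lowest of the 6 genes, at 0.55 TPM in replicate 2, against 0.19 TPM in replicate 1, a mean of 0.37 ± 0.255 TPM (SD, n = 2), from 101 counts in replicate 2 and 34 in replicate 1. It was also the gene of the 6 with the largest relative difference between the libraries. The log2 ratio was 1.49, a fold of 2.83 with a counting interval of 1.90 to 4.31, and 96.0% of the genes tested lay closer to 0. The authors' deposited intervals were 0.438 to 0.647 TPM in replicate 2 and 0.134 to 0.263 TPM in replicate 1, without overlap. The reads-based table gave 114 counts in replicate 2 and 37 in replicate 1, and spike-in scaling a log2 ratio of 1.88.

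Dio2 was the 1 gene of the 6 past 2-fold, and 7.73% of the 14996 genes tested were that far apart, 4.64% higher and 3.09% lower in replicate 2. The same 1 of 6 passed 1.5-fold, as 17.8% of genes did, and 2-fold under spike-in scaling, as 11.3% did. The count is therefore a statement about Dio2 and not about the group of 6. Beside Dio2, the 8 of 8 slow-fibre markers given above were over 2-fold higher in replicate 2, and so were the 5 of 7 lymphocyte markers that had enough counts. Endothelial, satellite cell and macrophage markers were higher in replicate 2 in 5 of 5, 3 of 3 and 3 of 4 genes, all within 2-fold, with median log2 ratios of 0.33, 0.34 and 0.27. Brown fat, a tissue known for high Dio2, had summed markers of 1.11 TPM in replicate 2, against 0.24 TPM in replicate 1. Nearly all of this was Zic1, the 1 gene of 3 with enough counts, at 1.11 TPM in replicate 2, against 0.22 TPM in replicate 1. Ucp1 was at 0 in both libraries, and Elovl3 had 0 counts in replicate 2 and 1 in replicate 1, so the sum is no measure of brown fat. The part of these cells in the Dio2 value was not tested. In tissue RNA, fewer cells of a type and less RNA per cell cannot be told apart, here or at any of the other genes. Gm26512, a noncoding gene that starts across from Dio2 and shares 100 exon bases with it, had 3 counts in replicate 2 and 0 in replicate 1.

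**Figure D4:**
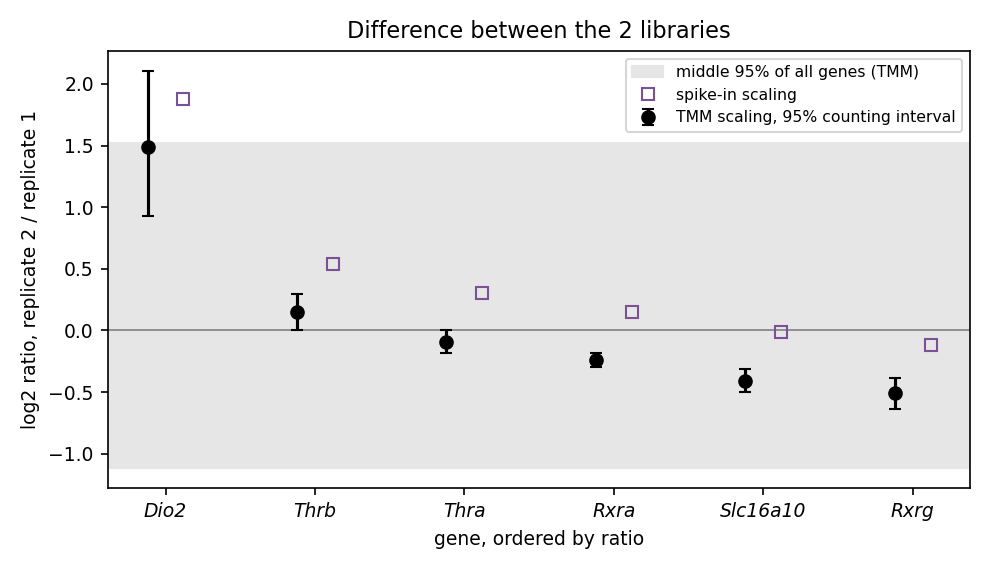
Log2 ratio of replicate 2 over replicate 1 for each gene, with TMM scaling and its 95% counting interval (black points and bars) and with spike-in scaling (purple squares); the grey band holds the middle 95% of the 14996 genes under TMM. Dio2 stands at 1.49 and the other 5 genes lie between -0.51 and 0.15; spike-in scaling moves the median of all genes up by 0.39.

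Dio2 has a single annotated transcript, and its coding sequence reads through UGA codons as selenocysteine, the first of which is the residue of the active site. These stretches of the Dio2 transcript are printed because they mark the gene as a selenoprotein; the capitals mark the codon, which stands in frame at residues 130 and 263 (GENCODE M21, minus strand).
Dio2 residue 130, chr12:90729802-90729846: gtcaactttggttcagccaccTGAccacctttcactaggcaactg
Dio2 residue 263, chr12:90729415-90729447: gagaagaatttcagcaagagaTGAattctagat
The window before the RefSeq start is printed for the cAMP response element TGACGTCA, in capitals, since Dio2 is known for its response to cAMP (GRCm38.p6, minus strand).
Dio2, chr12:90739039-90739288: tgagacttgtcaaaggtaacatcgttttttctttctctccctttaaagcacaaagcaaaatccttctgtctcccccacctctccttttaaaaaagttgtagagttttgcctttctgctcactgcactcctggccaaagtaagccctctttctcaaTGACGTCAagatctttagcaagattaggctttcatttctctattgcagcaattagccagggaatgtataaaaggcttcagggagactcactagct
The element lies 95 bases before the start and was found in 1.55% of the 32851 windows. The RefSeq start is 600 bases upstream of the start in GENCODE M21, the annotation used for the counts.

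The list of hormone transport and conversion genes, which includes Slc16a10 and Dio2, ranged from 0 counts to moderate levels. Of the list's 12 genes, 8 had enough counts. Of these, 1 was over 2-fold higher in replicate 2, Dio2 itself, and 0 were over 2-fold lower, beside 4.64% and 3.09% of all genes tested. The median log2 ratio was -0.37, against -0.0020 over all genes tested. Slc3a2 and Slc7a8, subunits of amino acid transporters that also carry thyroid hormones, stood at 11.0 and 6.86 TPM in replicate 2, against 17.3 and 13.1 TPM in replicate 1. Secisbp2, which lets ribosomes insert selenocysteine, was close between them, at 3.29 TPM in replicate 2, against 3.77 TPM in replicate 1. Slc7a5 stood at 0.73 TPM in replicate 2, against 0.94 TPM in replicate 1. The deiodinase Dio1 and the transporter Slc17a4 had 0 counts in both libraries, Slco1c1 had 1 in each, and the inactivating deiodinase Dio3 had 3 in replicate 2 and 5 in replicate 1. Dio2 was thus the only deiodinase gene above the floor of 3 counts in both libraries.

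Genes that act on the Dio2 protein stood above Dio2 in both libraries. Of the 5, 0 were over 2-fold apart, beside 7.73% of all genes tested. March6, a ubiquitin ligase, stood at 45.7 TPM in replicate 2, against 45.4 TPM in replicate 1, and the conjugating enzyme Ube2j2 at 24.1 TPM in replicate 2, against 22.7 TPM in replicate 1. The deubiquitinases Usp33 and Usp20 stood at 7 and 2.58 TPM in replicate 2, against 7.77 and 4.25 TPM in replicate 1. Usp20 had a log2 ratio of -0.34, with a fold interval of 0.665 to 0.934, and was the 1 of the 5 below 0; spike-in scaling gave 0.05.

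Most cofactor genes of the receptors lay within 2-fold, as most genes tested did. Of 7 corepressor genes 0 were over 2-fold apart, beside 7.73% of all genes tested. Ncor1, a corepressor that binds receptors without hormone, stood at 46.7 TPM in replicate 2, against 47.7 TPM in replicate 1. Of 11 coactivator genes 2 were over 2-fold higher in replicate 2, beside 4.64% of all genes tested, and 0 lower, with a median log2 ratio of 0.0049. They were Ppargc1a, a coactivator known for mitochondrial genes, at 23.5 TPM in replicate 2, against 8.09 TPM in replicate 1, and Ppargc1b, at 8.47 TPM in replicate 2, against 2.38 TPM in replicate 1. The enzymes Prmt1, Carm1 and Kat2b stood at 48.4, 24.7 and 24.3 TPM in replicate 2, against 49.6, 21.7 and 19.9 TPM in replicate 1.

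Among the nuclear receptors that can pair with the Rxr proteins, neither thyroid hormone receptor was over 2-fold apart. Their list also includes Rxra, Rxrb and Rxrg themselves. Of its 15 genes with enough counts, 1 was over 2-fold higher and 1 over 2-fold lower in replicate 2. Of all genes tested, 4.64% were that far higher and 3.09% lower. The median log2 ratio of the 15 was -0.0080. Ppara, the receptor for fatty acid oxidation, stood at 6.48 TPM in replicate 2, against 0.70 TPM in replicate 1. Pparg, the fat cell receptor, stood at 1.16 TPM in replicate 2, against 2.64 TPM in replicate 1, beside the lower white fat markers; their part was not tested. In the reads-based table Pparg was just inside 2-fold, at -0.97 on the log2 scale. Nr4a1 was the highest of this list, at 79.3 TPM in replicate 2, against 70.4 TPM in replicate 1. The vitamin D receptor Vdr had 7 counts in replicate 2 and 2 in replicate 1, and Nr4a2 stood at 0.59 TPM in replicate 2, against 0.37 TPM in replicate 1.

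The list of genes known to respond to thyroid hormone mixes genes it induces with genes it represses. Its split by direction therefore cannot show a response. Of 16 genes, 5 were over 2-fold higher in replicate 2 and 0 lower, beside 4.64% and 3.09% of all genes tested, while 8 were higher and 8 lower by any amount, with a median log2 ratio of -0.05. Besides Ppargc1a, the 5 were the slow calcium pump Atp2a2 and the myosin heavy chains Myh7, Myh2 and Myh1. Myh7 stood at 472 TPM in replicate 2, against 0.24 TPM in replicate 1, and Atp2a2 at 215 TPM in replicate 2, against 12.2 TPM in replicate 1; both are also slow-fibre markers. Of these, Myh7 is known to be repressed by the hormone in muscle. The log2 ratio of Atp2a2 was 4.06 in the gene table and 2.21 in the reads-based table. Myh1 and Myh2 stood at 1224 and 728 TPM in replicate 2, against 132 and 147 TPM in replicate 1.

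The fast genes Myh4 and Atp2a1 of the same list were lower in replicate 2, within 2-fold, while Myh1 and Myh2, also chains of fast fibres, were higher. Myh4 stood at 10376 TPM in replicate 2, against 15369 TPM in replicate 1, and the fast calcium pump Atp2a1, which the hormone is known to induce, at 9491 TPM in replicate 2, against 12302 TPM in replicate 1. Hr and Klf9, direct receptor targets in brain, were singled out here after their values were seen. Hr stood at 29.0 TPM in replicate 2, against 49.0 TPM in replicate 1, a log2 ratio of -0.99, and Klf9 at 59.3 TPM in replicate 2, against 53.9 TPM in replicate 1, a log2 ratio of 0.15. No hormone level was measured, and the 2 libraries give no test of a hormone response.

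**Figure D5:**
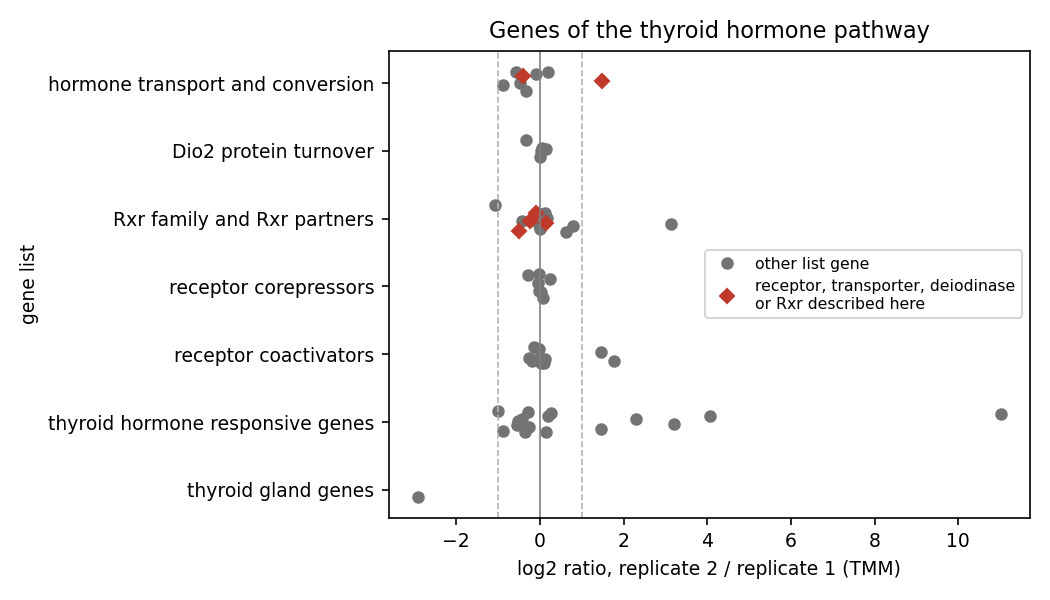
Log2 ratio of replicate 2 over replicate 1 (TMM) for the genes of each list with a mean count of at least 10, one point a gene, with the receptor, transporter, deiodinase and Rxr genes described above as red diamonds; points are spread vertically so that they can be seen. Dashed lines mark 2-fold, and 8 of 62 distinct genes lie beyond it on the right and 2 on the left. Of all genes tested, 4.64% lie beyond it on the right and 3.09% on the left.

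Genes of the thyroid gland, listed to show whether gland tissue was in the samples, were at or near 0. Pax8, Nkx2-1, Iyd and Slc26a4 had 0 counts in both libraries. Tg, the hormone precursor, had 7 counts in replicate 2 and 4 in replicate 1, Duox2 had 2.05 in replicate 2 and 10 in replicate 1, and Slc5a5 had 0 in replicate 2 and 6 in replicate 1. Tshr, the receptor for thyroid-stimulating hormone, which fat cells also express, had 9 counts in replicate 2 and 68 in replicate 1. It was the 1 gland gene with enough counts and was over 2-fold lower in replicate 2, beside the white fat markers, whose part was not tested. Over all 75 distinct genes of these lists, 62 had enough counts, and 8 were over 2-fold higher and 2 over 2-fold lower in replicate 2, beside 4.64% higher and 3.09% lower of all genes tested.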

How the data were processed

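The authors deposited expected and estimated counts, which are raw sums and can hold fractions. TPM values are as deposited, with spike-ins included in their total. The posterior SD and the interval bounds of the level, per the file headers, were used as scores of how surely reads were assigned. Each library has a gene table and a transcript table from alignments, and a transcript table made directly from the reads; the descriptions deposited beside them name mm10 and GENCODE M21. Which program made them, and with which strand setting, is not given in the sources used here. Sequence from both parental strains was placed on 1 reference, and the effect was not tested.

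Counts were scaled by TMM (edgeR 4.0.16, R 4.3.3), with spike-in totals, DESeq2 1.42.0 size factors and library totals as alternatives. Counts rounded to whole numbers were used for the TMM and DESeq2 factors and for the intervals, and unrounded counts for the log2 ratios. Log2 ratios are replicate 2 over replicate 1 with a prior count of 0.5, and genes needed a mean count of at least 10. Past 2-fold counted as apart. Intervals are exact (Clopper-Pearson) for ratios and Wilson for shares, at 95%, and cover counting error only. The floor is 3 counts. With 1 group no test was possible. The genes and lists were chosen with earlier results of these data known. Named genes are the 6, their share partners, Nr1d1, the overlapping gene, and per list the 4 highest, those past 2-fold and those under 1 TPM; some of these are not reported here. Sequences came from GENCODE M21 transcripts and RefSeq promoter windows; 5 of 6 genes matched a window. The steps were tested on simulated counts.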

Additional observations from a re-analysis of the deposited data

How the results depend on the processing

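Depth limits Dio2 most, with a mean count of 67.5, and dividing reads between transcripts limits the shares. The number of the 6 genes over 2-fold apart was 1 in the gene table and under 6 alternatives, and 0 when a mean count of at least 100 was asked for, which leaves Dio2 untested. The 10 pathway genes over 2-fold apart became 7 to 13 under 5 alternatives. The mean Thra share of Thra plus Thrb was 77.7%, against 73.7% in the reads-based table and 70.9% by counts; the cause was not tested. The Rxrg share of the Rxr family was 28.1%, against 14.9% by counts, which are not per length. Leaving out 1 library gave 76.1 to 79.4% for Thra, 25.5 to 30.6% for Rxrg and 42.1 to 47.8% for Thra-202. Over 6 alternatives the log2 ratio of Dio2 stayed between 1.38 and 1.88, and those of Rxrg, Slc16a10 and Thrb kept their sign. Thra changed sign under 2 alternatives and Rxra under 1. Leaving out mitochondrial, spike-in and 7SL rows set higher TPM levels for all 6 genes, such as 58.0 for Thra. The shares of transcripts other than Thra-202 were alternatives chosen after seeing the data. A ratio cannot be had with a library left out. No paired analysis was possible because the 2 libraries form 1 group.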
